A study of Homo sapiens with 24 samples.

Results

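SIRT1 knockdown cells of the LNCaP line were compared with LNCaP cells carrying a non-targeting hairpin while both were exposed to dihydrotestosterone (DHT), the potent androgen that binds the androgen receptor. LNCaP is an established, hormone-sensitive human prostate cancer line. The comparison rests on 6 of the 24 RNA-seq libraries of the series, chosen by their titles: 3 of the knockdown that the labels name 10, and 3 of the control, called NTC. Per the labels, both lines were made with lentiviral short hairpin RNA at a multiplicity of infection of 10, were selected in 1 µg/ml puromycin and were then held as stable clones in 0.5 µg/ml. Both had 48 h in medium with fetal bovine serum, then 24 h in medium with charcoal-stripped serum, which lacks androgens, and then 24 h with 1 nM DHT. Beside them, the same lines went through the same steps but ended with 24 h of vehicle, or of 1 nM DHT with 10 µM enzalutamide, an antagonist of the androgen receptor, with 3 libraries a group. The series also holds NTC cells and a knockdown named shSIRT1 in medium with fetal bovine serum, not used here. The labels state the question as the role of SIRT1 in the progression of prostate cancer. They do not say how many clones make up a line or whether the 3 libraries of a group came from separate cultures. The p-values therefore measure the spread between libraries within groups, pooled over the 18 libraries in stripped serum. The loss of SIRT1 and any other difference between the lines cannot be told apart.

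SIRT1 is a deacetylase that uses NAD as a cofactor. It removes acetyl groups from histones and from transcription factors and their partners, among them p53, FOXO factors and the androgen receptor. DHT bound to the androgen receptor switches on genes such as KLK3, which encodes prostate-specific antigen, and drives LNCaP cells through the cell cycle. The comparison under DHT therefore describes the knockdown in cells that are being stimulated to divide.

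The 3 control libraries held 29.0 to 33.0 M counts and the 3 knockdown libraries 25.2 to 28.1 M. Of 23207 genes in the files, 14558 had enough counts to be tested. Levels are in CPM, counts scaled to a common library size with TMM factors, and changes are log2 fold changes of knockdown against control from 1 edgeR quasi-likelihood fit over 18 libraries. A gene "rose" or "fell" when its Benjamini-Hochberg adjusted p, over all genes tested, was under 0.05. SIRT1 itself stood at 46.6, 51 and 49.99 CPM in control libraries 1, 2 and 3 and at 13.1, 16 and 17.8 CPM in the knockdown. Every knockdown library lay below every control library, and about 1 transcript in 3 was left (3.14-fold lower, log2 fold change -1.65, standard error 0.095, adjusted p = 8.46e-10). The label of a luminal prostate line was checked with 15 markers, all of which were detected. Their summed level was 3625 to 3735 TPM (RSEM's unit scaled for transcript length and depth) in the control and 3352 to 4362 in the knockdown. Marker lists of other cells stayed low in both groups. The 15 genes of basal cells and other prostate lines summed to 55.8 to 81.7 and 68.2 to 83.2 TPM, with 2 members at 0. The 12 fibroblast genes summed to 10.3 to 15.7 and 14.4 to 15.8 TPM, with 3 at 0, and the 12 leukocyte and endothelial genes to 9.0 to 10.3 and 10.3 to 10.8 TPM, with 2 at 0. The knockdown libraries differed more among themselves than the control libraries did. The chi-square of their counts per gene was 38.6 for libraries 1 and 2, 22.4 for 2 and 3 and 12.5 for 1 and 3, against 14.0, 3.78 and 9.79 in the control. On a first principal component holding 46.3% of the variance the knockdown libraries scored 5.66, 19.5 and 13.2, and the control libraries -48.1, -44.8 and -48.7.

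Under DHT, 6266 of the 14558 genes changed in the knockdown (43.0%): 2840 rose (19.5%) and 3426 fell (23.5%). Without the 6 libraries numbered 1, a setting added after the data were seen, 6042 changed, and without knockdown library 1 or 2 alone 6379 and 5774. Most changes were small. The median size among the genes that changed was 0.39 on the log2 scale, and 254 rose and 667 fell by at least 2-fold. Large falls outnumbered large rises further up the scale, with 23 rising and 124 falling by at least 4-fold, and 4 rising and 49 falling by at least 8-fold. For 6845 genes (47.0%), the libraries of a group all lay on 1 side of those of the other, and 5790 of these had also passed the test. Each count of a gene list below is therefore to be read against 19.5% rising and 23.5% falling among all genes.

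**Figure D1:**
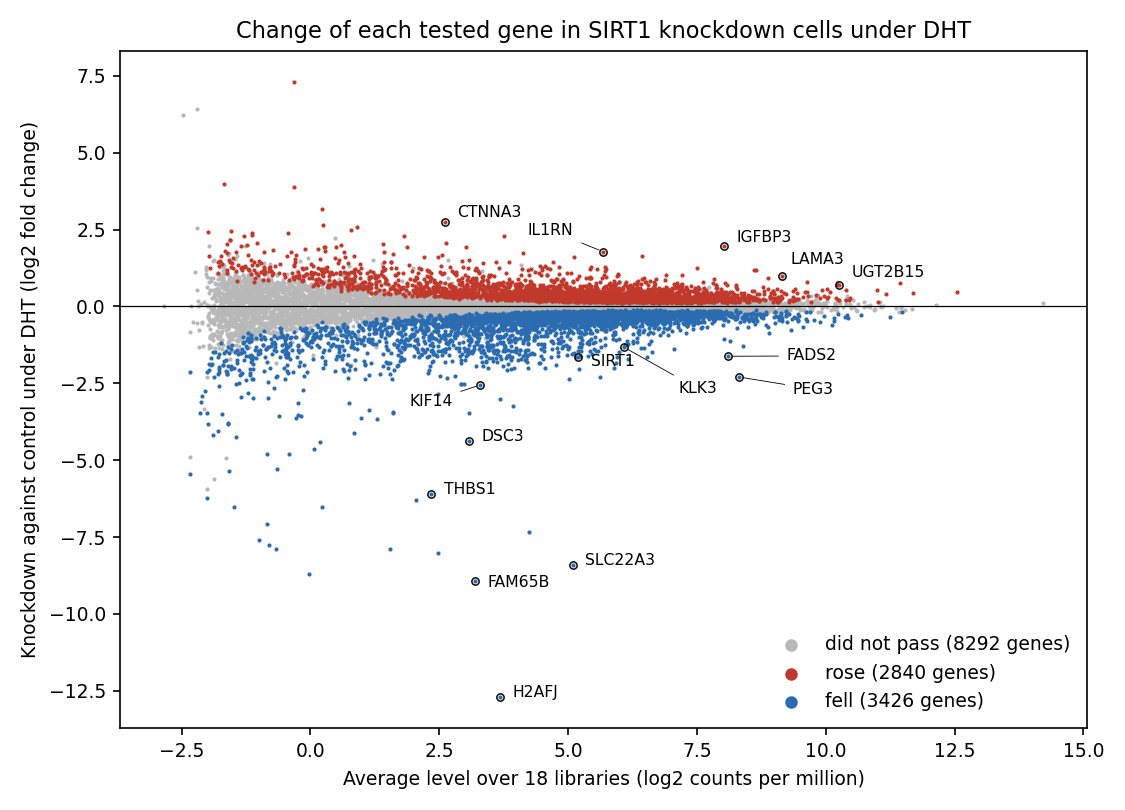
Log2 fold change of knockdown against control under DHT (vertical axis) for each of 14558 tested genes, by its average level over 18 libraries in log2 CPM (horizontal axis). Red points rose, blue points fell and grey points did not pass, and open circles mark named genes. The lower arm holds the few genes almost lost in the knockdown, such as H2AFJ, whose fitted value rests on 0 knockdown counts and depends on the prior count of the fit.

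Some transcripts all but vanished. H2AFJ, a variant of histone H2A, had 24.6, 27.3 and 31.3 CPM in the 3 control libraries and no count in any knockdown library, which puts it at least 743-fold lower. SLC22A3, a transporter of organic cations, fell from 58, 60.1 and 61.4 CPM to 0.121, 0.217 and 0.177 CPM (337-fold lower, adjusted p = 1.69e-13). The counts of H2AFJ could be divided with other histone genes of like sequence, so its level is less certain than that of SLC22A3. FAM65B fell from 26 to 0.0475 CPM, and TLL1, a secreted metalloprotease, from 28.6 to 0.172 CPM. DDIT4L, a relative of the mTOR inhibitor REDD1, had 968 control counts and 3 in the knockdown, a ratio of 287 with a 95% interval of 97.98 to 1395, and the receptor gene FCAMR had 617 and 2, a ratio of 275 (75.7 to 2272). These intervals cover counting error only. THBS1, the matrix protein thrombospondin, had 15, 12 and 12.3 CPM in the control and 0.161, 0.326 and 0.0709 CPM in the knockdown, and the cell adhesion gene CNTN5 fell from 4.22 to 0.0497 CPM. DSC3, a desmosomal cadherin, fell from 16.9, 14.8 and 17.5 to 0.927, 0.724 and 0.745 CPM. A lack of overlap between the groups was a condition for naming these genes and is no separate result.

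In all, 9 genes that fell had 0 counts over the 3 knockdown libraries and 18 had 1 to 3, while 1 gene that rose had 0 in the control. Beside H2AFJ, the genes at 0 include S100A7, a small calcium-binding protein, with 156 control counts (at least 46.3-fold lower), and the histone chaperone relative NAP1L5, an imprinted gene (at least 26.4-fold). BCAT1, which transfers amino groups from branched-chain amino acids, was at least 21.7-fold lower. The cancer-testis gene CTAG2 had 102 control counts and 2 in the knockdown, a ratio of 45.4 (12.3 to 380). NAP1L5, S100A7, BCAT1 and CTAG2 were picked out of the near-empty genes after their counts were seen. MAGEA4, another cancer-testis gene, fell from 4.34 to 0.343 CPM, DDX53 from 5.03 to 0.452 CPM and CADPS2, which takes part in the release of dense-core vesicles, from 23.7 to 2.18 CPM. Reads of MAGEA4 and CTAG2 can be split with near-identical copies.

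PEG3, an imprinted zinc finger gene expressed from the paternal copy, fell most among abundant genes. These were taken as called genes whose log2 CPM averaged 6 or more and whose groups did not overlap. PEG3 is described first. Its level was 622, 592 and 633 CPM in the control and 176, 99.7 and 102 CPM in the knockdown, with knockdown library 1 above the others (4.9-fold lower, adjusted p = 7.63e-07). FADS1 and FADS2, the desaturases that open the path to long polyunsaturated fatty acids, came next with ETV1, an ETS factor that LNCaP cells overexpress. FADS1 fell from 147, 127 and 138 to 47.7, 41.1 and 38.7 CPM (log2 fold change -1.69). FADS2 fell from 591, 499 and 539 to 214, 155 and 161 CPM (-1.62). ETV1 fell from 169.9, 150.4 and 158 to 60.8, 42.6 and 49 CPM (-1.65). BTF3L4, a relative of the transcription factor BTF3, showed the tightest groups of all these, at 144, 139 and 139 against 50.7, 52 and 50.5 CPM. LDHB, a lactate dehydrogenase subunit, fell from 569.9, 509 and 529 to 234, 205 and 216 CPM. CDK1, TMPO, ATAD2 and KLK3 complete the 10.

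Rises were smaller. CTNNA3, an alpha-catenin of cell junctions, rose most of the genes whose log2 CPM averaged 1 or more and whose groups did not overlap. It had 0.94, 1.04 and 1.42 CPM in the control and 5.32, 8.29 and 9.33 CPM in the knockdown (6.78-fold higher, adjusted p = 5.75e-07). IGFBP3, which binds and sequesters insulin-like growth factors, went from 86.3, 101 and 87.9 to 322, 368 and 386 CPM (3.91-fold). IL1RN, the natural antagonist of the interleukin-1 receptor, went from 19.9, 19.5 and 20.1 to 69.9, 66.9 and 68.8 CPM (3.45-fold) and had the least spread of these genes. The rest of the 12 highest stood at low levels in the control: DMGDH, of choline breakdown, went from 0.716 to 3.48 CPM, the homeobox gene DLX3 from 0.73 to 2.995 CPM, the lectin REG4 from 0.784 to 3.01 CPM and PLD1, a phospholipase D, from 2.34 to 8.91 CPM. DEGS2, of ceramide synthesis, went from 0.656 to 2.21 CPM, GRIN3A, a subunit of NMDA receptors, from 14.6 to 49.2 CPM, NRG3, a ligand of ERBB4, from 0.868 to 2.81 CPM, LRRC6, of cilia, from 2.32 to 7.36 CPM and LOC338651 from 1.92 to 8.08 CPM. A lack of overlap between the groups was a condition for entering these 12 and is no separate result. Among abundant genes, LAMA3, a laminin chain of epithelial basement membranes, rose from 410.3, 459 and 401 to 792, 902 and 809.9 CPM. QSOX1, which forms disulfide bonds in secreted proteins, rose from 279 to 530.2 CPM, TMEM2, a cell surface hyaluronidase, from 73.8 to 149 CPM, ID3, an inhibitor of helix-loop-helix factors, from 52.2 to 99.3 CPM and ENPP5 from 53.7 to 100.3 CPM.

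**Figure D2:**
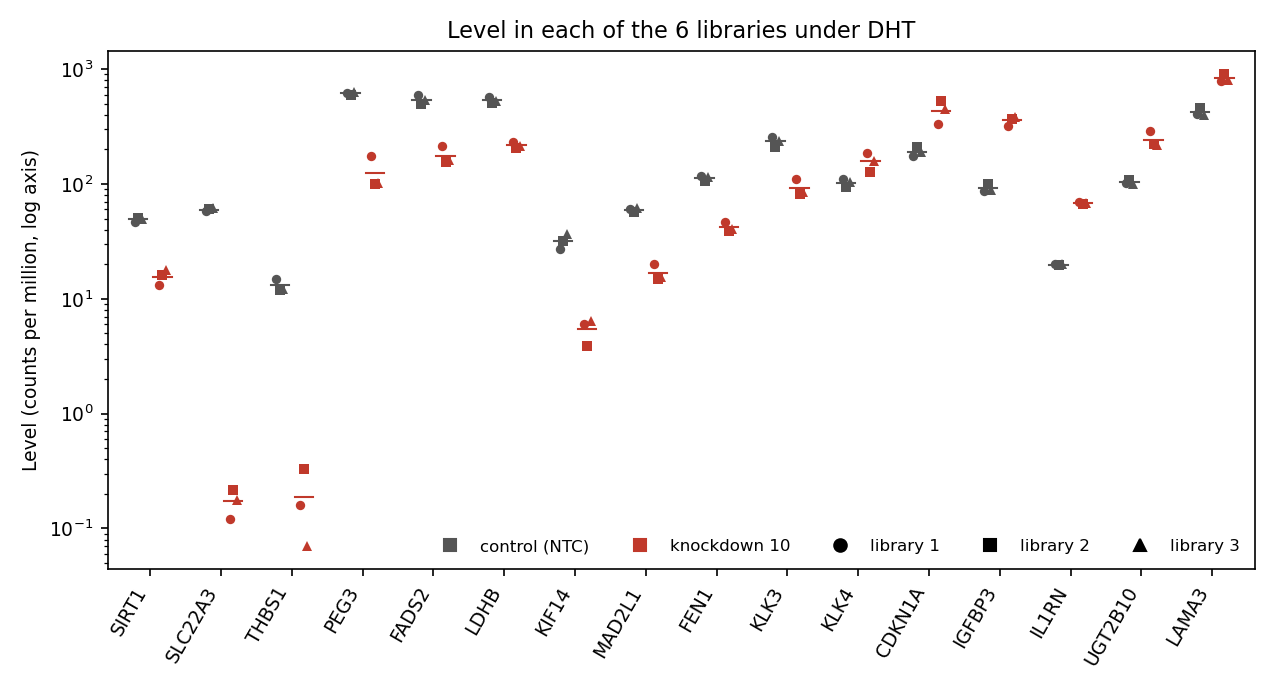
Level in CPM (log axis) of 16 genes in the 6 libraries under DHT, with control libraries in grey, knockdown libraries in red, symbols for libraries 1 to 3 and a bar at each mean. The groups do not overlap for any of the 16 genes, which was a condition of choice for those named as highest or lowest changes. Knockdown library 1 is the highest of its group for KLK3, FADS2 and PEG3 and the lowest for SIRT1 and CDKN1A.

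Genes of cell division fell as a body. Of 31 mitotic kinases, cyclins and anaphase regulators tested, 31 fell, of 31 centromere and kinetochore genes 31, and of 32 spindle motor and cytokinesis genes 32, and the same counts fell without the 6 libraries numbered 1. The medians were -1.43, -1.36 and -1.60 on the log2 scale against -0.0016 for all genes. MAD2L1, the spindle checkpoint protein that holds back anaphase, stood at 61, 57.1 and 61.2 CPM in the control and 20.2, 14.8 and 15.6 CPM in the knockdown (3.55-fold lower, adjusted p = 6.56e-10). KIF14, a motor of the central spindle, fell from 27.2, 31.6 and 37 to 6.01, 3.88 and 6.42 CPM, the furthest of the kinesins named. In bulk RNA, fewer dividing cells and less of each transcript per cell cannot be told apart.

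The other members were of the same kind. CDK1, the kinase that starts mitosis, fell from 339.7 to 132 CPM, its partners CCNB1 and CCNB2 from 103 to 35.1 CPM and from 44.1 to 15.2 CPM, and CKS1B, a subunit of such kinases, from 45.1 to 22.8 CPM. PTTG1, the securin that guards cohesin, fell from 34.3 to 11.5 CPM. At the kinetochore, where microtubules grip the chromosome, NDC80 fell from 55.8 to 18.6 CPM, ZWILCH from 74.3 to 30.04 CPM and ZWINT from 108 to 46.4 CPM. BIRC5, or survivin, a part of the chromosomal passenger complex, fell from 63.7 to 17.8 CPM, and OIP5, which helps to load the centromere histone, from 14 to 4.65 CPM. Of the machinery that splits the cell, KIF20A fell from 49.7 to 12.6 CPM, KIF23 from 35.5 to 11 CPM and RACGAP1 from 89.5 to 31.5 CPM. TACC3, which stabilises spindle microtubules, fell from 95.3 to 43.5 CPM and DEPDC1 from 40.3 to 10.7 CPM. Of 20 condensin, cohesin and topoisomerase genes, 19 fell (median -0.90), among them the condensin subunits NCAPG, from 73.3 to 22.3 CPM, NCAPH, from 47 to 17.5 CPM, NCAPD2, from 152 to 81.6 CPM, and NCAPD3, from 138 to 73.9 CPM. RAD21, the cohesin ring's closing subunit, fell less, from 233 to 158 CPM.

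DNA replication followed. Of 26 origin licensing and helicase genes 24 fell, of 32 replication fork genes 31, and of 12 genes that make deoxynucleotides 12, with medians of -1.17, -0.93 and -0.71. The replicative helicase lost MCM2, from 165, 155 and 168 to 76.6, 65.5 and 63.5 CPM. MCM3 fell from 138 to 65.2 CPM, MCM4 from 238 to 102 CPM and MCM7 from 237 to 124 CPM. GINS1, which joins the helicase, fell from 58.4 to 21.6 CPM and ORC1, which marks origins, from 30.2 to 12.1 CPM. The members that did not pass were ORC3 (0.05) and ORC4 (-0.01), of the same origin complex. At the fork, FEN1, the nuclease that trims Okazaki fragments, had 118, 106 and 116 CPM in the control and 46.5, 38.9 and 40.5 CPM in the knockdown. KIAA0101, which binds the sliding clamp, fell from 40.9 to 15.2 CPM, the clamp loader subunits RFC4 and RFC5 from 42.6 to 20.1 CPM and from 50.3 to 25.7 CPM, and PRIM1, the catalytic primase, from 31.3 to 14.6 CPM. UHRF1, which guides the maintenance methylase to new DNA, fell from 53.7 to 18.5 CPM, and that methylase, DNMT1, from 159.8 to 94.3 CPM. RPA3, a subunit of the single-strand binding complex, did not pass (-0.33). Among nucleotide enzymes, TYMS, which makes thymidylate, fell from 103, 96.1 and 111 to 42.8, 33.3 and 38.8 CPM. TK1, thymidine kinase, fell from 84 to 31.9 CPM, DTYMK from 25 to 13.3 CPM, RRM1, the large subunit of ribonucleotide reductase, from 199 to 104 CPM and DUT, which clears dUTP, from 66.7 to 43.3 CPM.

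Promoters of these genes are shown because the members moved together and because mitotic and replication genes are known to be governed through different short elements. The cell cycle genes homology region (CHR, searched as TTTGAA or TTCGAA) is bound by the DREAM and MuvB complexes, and E2F sites (searched as TTCCCGC, then as TTGGCGC, then as TTCGCGC and then as TTGCCGC) by E2F factors with retinoblastoma proteins. RefSeq promoters (GRCh38.p14) were matched to 11496 of the 14558 genes, by RefSeq transcript where possible and otherwise by symbol or synonym. The 250 bases before the start were searched on both strands. Each line below gives the 120 bases before the start, read 5′ to 3′ on the gene's strand, with the match in capitals. The genes shown were taken in order of adjusted p from members with a match in these bases, and members without a match were passed over. The first 3 are mitotic genes with a CHR, which in DEPDC1 lies on the other strand, and the last 3 are replication genes with an E2F match, which in TYMS lies on the other strand.
DEPDC1, chr1:68497083-68497202, minus strand: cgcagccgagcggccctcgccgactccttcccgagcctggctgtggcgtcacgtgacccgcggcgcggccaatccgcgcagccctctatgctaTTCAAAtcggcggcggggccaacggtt
CKS1B, chr1:154974561-154974680, plus strand: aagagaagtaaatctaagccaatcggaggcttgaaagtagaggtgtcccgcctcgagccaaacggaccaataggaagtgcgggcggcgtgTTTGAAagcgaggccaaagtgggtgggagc
CCNB2, chr15:59105026-59105145, plus strand: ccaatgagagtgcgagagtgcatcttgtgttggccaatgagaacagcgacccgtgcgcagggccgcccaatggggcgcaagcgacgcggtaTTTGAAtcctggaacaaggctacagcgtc
RFC4, chr3:186806483-186806602, minus strand: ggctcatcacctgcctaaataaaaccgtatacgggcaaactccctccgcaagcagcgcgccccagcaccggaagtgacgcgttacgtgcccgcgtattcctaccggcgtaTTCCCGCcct
PRIM1, chr12:56752324-56752443, minus strand: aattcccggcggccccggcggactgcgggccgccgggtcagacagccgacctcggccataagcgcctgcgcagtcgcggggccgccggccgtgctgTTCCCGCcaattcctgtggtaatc
TYMS, chr18:657533-657652, plus strand: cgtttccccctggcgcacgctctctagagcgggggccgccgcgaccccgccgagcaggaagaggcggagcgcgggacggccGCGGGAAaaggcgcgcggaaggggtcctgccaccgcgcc

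A CHR match was in 17 of 29 spindle promoters (58.6%), 10 of 24 of mitotic kinases and cyclins (41.7%) and 6 of 25 centromere promoters (24.0%), and in 1 of 22 of origin genes (4.55%), 0 of 27 of fork genes and 3 of 11 of deoxynucleotide genes (27.3%). It was in 9.70% of the promoters of all tested genes and in 14.6% of all 27305 promoters in the table. An E2F match was in 9 of 22 origin promoters (40.9%), 11 of 27 fork promoters (40.7%) and 2 of 11 deoxynucleotide promoters (18.2%). It was in 6 of 24 of mitotic kinases and cyclins (25%), 7 of 25 of the centromere list (28%) and 6 of 29 of the spindle list (20.7%), and in 17.2% of tested genes and 11.02% of all promoters. A CCAAT, the element of the factor NF-Y, which can share letters with the second E2F form on the other strand, was in 21 of 29 spindle promoters (72.4%), 17 of 24 of mitotic kinases and cyclins (70.8%) and 15 of 25 centromere promoters. It was in 13 of 22 origin promoters (59.1%), 14 of 27 fork promoters (51.9%) and 5 of 11 deoxynucleotide promoters (45.5%), against 35.3% of tested genes and 33.0% of all promoters. A match describes the letters and is not a measured binding site.

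Genes of homologous recombination and the Fanconi pathway, which mend broken or crosslinked DNA at the fork, fell in 34 of 38 cases (median -0.97). CHEK1, the checkpoint kinase of stalled forks, fell from 37.4 to 14.6 CPM, RAD51AP1 from 35.6 to 12.1 CPM, FANCI from 125 to 49.9 CPM, UBE2T, which ubiquitinates it, from 66.2 to 27 CPM and FANCG from 41.9 to 19.7 CPM. MRE11A, a nuclease at breaks, fell less, from 59.4 to 40.9 CPM. ATM (0.06), RAD50 (0.07), NBN (-0.12) and BARD1 (0.06) did not pass. Mismatch and excision repair was mixed, with 3 of 25 genes rising and 12 falling (median -0.17). The uracil glycosylase UNG fell from 85.1 to 49.4 CPM, the mismatch protein MSH6 from 84.6 to 53 CPM and PARP2 from 57.3 to 32.9 CPM.

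Of 23 E2F, retinoblastoma and G1 cyclin genes, 17 fell and 1 rose (median -0.43). E2F1, an activator of S phase genes, had 62.5, 51.4 and 58.9 CPM in the control and 25.8, 16.2 and 19.1 CPM in the knockdown. E2F2 fell from 15.4 to 5.36 CPM, CDK2 from 77.8 to 38.7 CPM, LIN9, a core part of MuvB, from 19.6 to 8.1 CPM and RBL1, or p107, from 28.4 to 15.9 CPM. RB1 itself (0.04) and CCND1, cyclin D1 (-0.20), did not pass, and their groups overlapped. Of 8 CDK inhibitors, 3 rose and 4 fell. CDKN1A, or p21, rose from 175, 209 and 190.1 to 331, 528 and 451 CPM (2.28-fold higher, adjusted p = 3.88e-06). Knockdown library 1 was the lowest of its group and still above every control library. CDKN1B, or p27, rose from 69 to 78.5 CPM, a call lost with limma on TPM, without the 6 libraries numbered 1, and without knockdown library 1, knockdown library 3 or control library 1. CDKN2C fell from 18.4 to 8.23 CPM, CDKN2A from 13.1 to 7.87 CPM and CDKN3, a phosphatase of CDK2, from 21.5 to 8.89 CPM. The p53 targets did not move 1 way: 7 of 30 rose and 7 fell (median 0.01). Beside CDKN1A, GDF15, a secreted stress signal, rose from 71.4, 96.4 and 86.8 to 144, 195 and 182 CPM and TP53INP1 from 448 to 635 CPM. PLK2 fell from 42.3 to 23 CPM and MDM2 did not pass (-0.01).

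Histone genes split by kind. Of 22 replication-dependent histone genes tested, 8 rose and 1 fell (median 0.40), although the replication genes fell. HIST1H2AC rose from 24, 26.2 and 23.7 to 43.7, 49.4 and 52.6 CPM, HIST1H2BC from 5.57 to 10.6 CPM, HIST1H2BD from 19.6 to 30.9 CPM and HIST1H2BK from 138 to 197 CPM. The libraries were made by a kit that selects polyadenylated RNA, and most replication-dependent histone transcripts carry no poly(A) tail, so these counts are of the polyadenylated forms. Near-identical copies make the value of any 1 histone gene uncertain. Of 10 variant histone genes, 0 rose and 6 fell, with H2AFX, which marks DNA breaks, going from 85.9 to 37.9 CPM and H3F3A from 108 to 66 CPM. Of 34 genes of DNA methylation and heterochromatin, 4 rose and 17 fell. The polycomb genes EZH2 and CBX2 fell from 41.4 to 23.9 CPM and from 63.5 to 35 CPM, CBX3 from 436 to 315 CPM, and TET2, which oxidises methylcytosine, rose from 71.2 to 107 CPM. Among 19 sirtuin and NAD genes, 6 rose and 4 fell. SIRT2, a mainly cytosolic deacetylase, rose from 74.3, 74.4 and 73.2 to 101, 108 and 94.3 CPM, NMNAT2 from 13.7 to 20.6 CPM, and PARP1, a large consumer of NAD, fell from 485 to 302 CPM. The 6 that rose became 2 with limma on TPM, and 3 without control library 1 or 2 or with the 6 libraries alone.

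**Figure D3:**
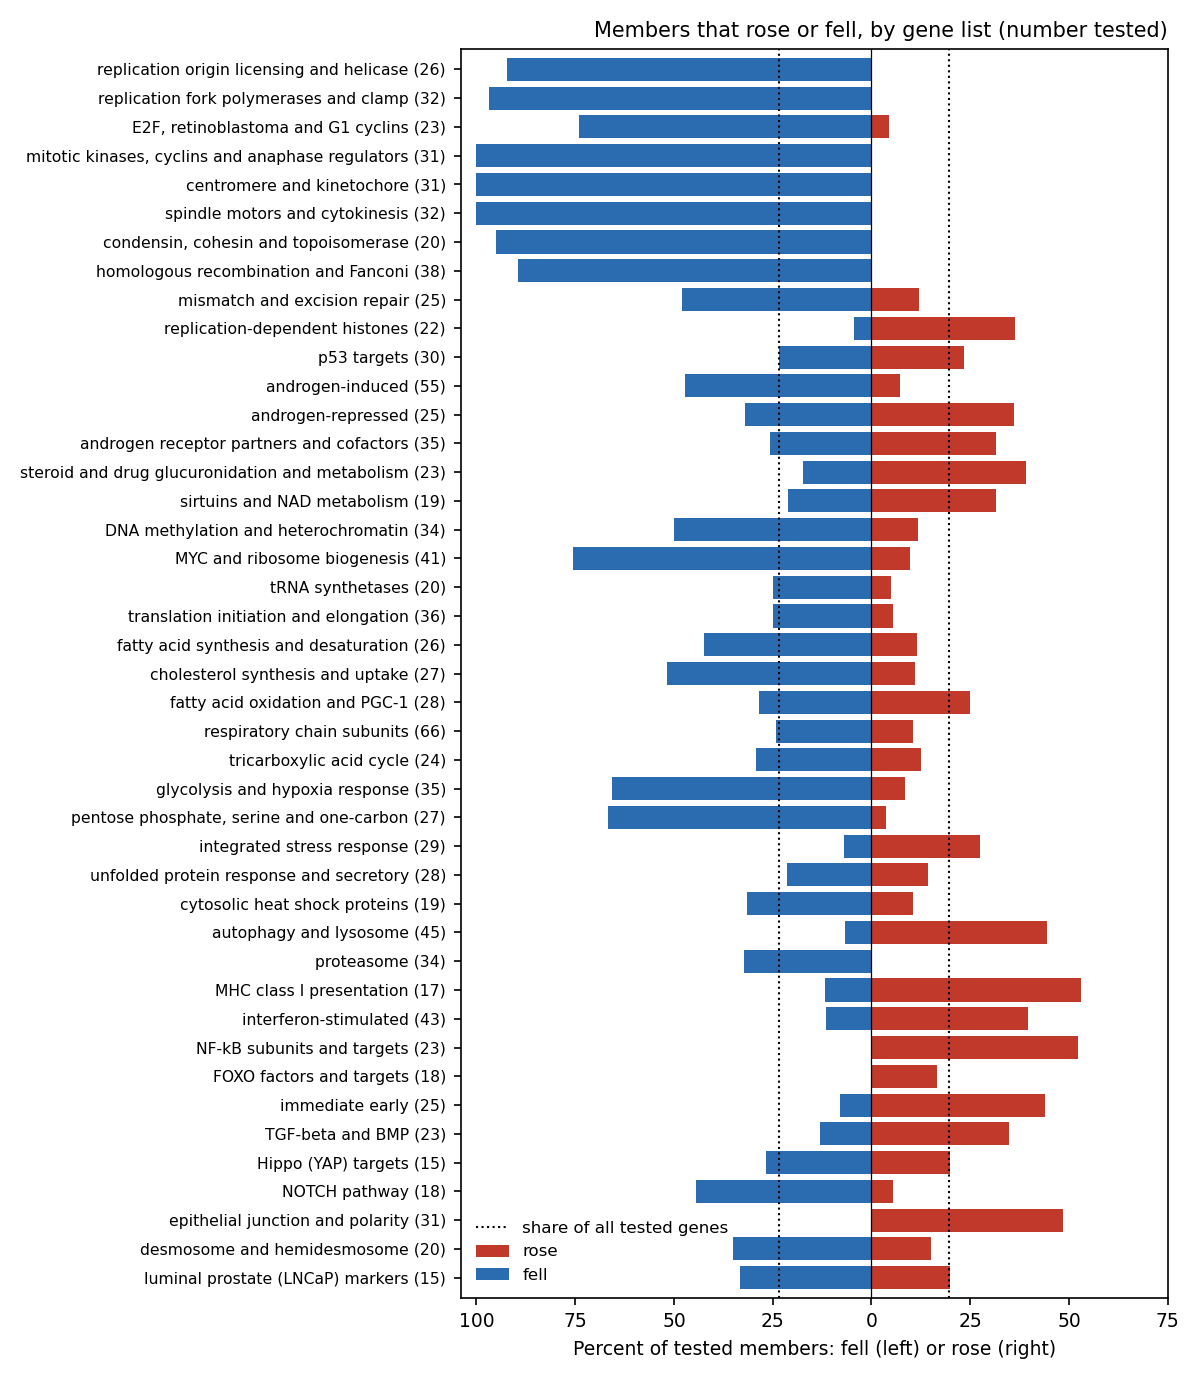
Percent of the tested members of each gene list that fell (blue, to the left) or rose (red, to the right) under DHT, for lists with at least 15 tested members, with the number tested in brackets. Dotted lines mark the 23.5% and 19.5% of all tested genes. The lists of cell division and replication reach furthest to the left, and those of MHC class I presentation and NF-kB furthest to the right.

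Androgen-induced genes stood lower in the knockdown even with DHT present: 26 of 55 fell and 4 rose (median -0.26). Without the 6 libraries numbered 1, 28 fell and 7 rose. The median knockdown change of this list was -0.304 in vehicle and -0.306 under DHT with enzalutamide. KLK3 had 256, 208 and 239 CPM in the control and 111, 82.2 and 85.6 CPM in the knockdown (2.52-fold lower, adjusted p = 4.52e-07). KLK2 fell from 109.7, 76.1 and 78.9 to 62.2, 41.8 and 43.5 CPM. TMPRSS2, a membrane protease, fell from 107 to 66.7 CPM, FKBP5, a chaperone of steroid receptors, from 103 to 62.2 CPM, the potassium channel KCNN2 from 80.2 to 46.2 CPM and F5, coagulation factor V, from 12.2 to 3.69 CPM. CENPN, also a centromere gene, fell from 66.2 to 30.5 CPM. The list did not move whole: KLK4, a kallikrein next to KLK2 and KLK3 in the genome, rose from 110.2, 93.9 and 105 to 188, 127 and 157 CPM (adjusted p = 8.38e-05), RHOU rose from 70.3 to 102 CPM, and TRPM8 (-0.02) and STEAP2 (0.21) did not pass. The androgen receptor itself had 191, 180.4 and 181 CPM in the control and 238, 196 and 191 CPM in the knockdown, with overlapping groups (log2 fold change 0.18, adjusted p = 0.229). Its pioneer factor FOXA1 (-0.0023) and partner HOXB13 (-0.08) did not pass either. Of 35 partners and cofactors of the receptor 11 rose (6 with limma on TPM) and 9 fell. The corepressor TLE1 rose from 39.3 to 64.7 CPM and the acetyltransferase gene CREBBP from 87.3 to 111 CPM, while the demethylase gene KDM1A fell from 99.1 to 77.1 CPM and the deacetylase gene HDAC2 from 269 to 209.99 CPM.

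Among 25 androgen-repressed genes 9 rose and 8 fell, so this list had no common direction. The UGT2B enzymes attach glucuronic acid to androgens and so inactivate them. UGT2B15 rose from 624, 839 and 764 to 1150.3, 1275 and 1174 CPM, UGT2B10 from 102, 108 and 99 to 288, 224 and 219 CPM and UGT2B17 from 97.2 to 157 CPM. UGT2B28 did not pass (0.04). Reads shared between these near-identical genes make their separate values uncertain. DDC, which decarboxylates DOPA, fell from 62.5 to 27.6 CPM and the opioid receptor OPRK1 from 16.5 to 5.42 CPM. In the wider list of steroid and drug metabolism, 9 of 23 rose and 4 fell, with SULT1A1, a sulfotransferase, going from 26.9, 28.6 and 26.3 to 64.2, 73.8 and 61.7 CPM and CYP11A1, which starts steroid synthesis, falling from 3.11 to 1.41 CPM.

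Genes of lipid synthesis fell more often than they rose. Of 26 genes of fatty acid synthesis and desaturation, 3 rose and 11 fell, a count of 6 or 7 without knockdown library 3, without control library 1 or with the 6 libraries alone. ELOVL2, which lengthens the products of FADS1 and FADS2, went from 1.79 to 0.149 CPM, fatty acid synthase FASN from 1401, 1152 and 1182 to 891, 775 and 664 CPM, and ACSL4, which activates arachidonate, from 5.97 to 2.61 CPM. ACSL5 rose from 2.22 to 4.16 CPM. Of 27 cholesterol genes 3 rose and 14 fell (median -0.22), among them FDPS, from 149 to 92.2 CPM, EBP, from 58.3 to 37.9 CPM, and INSIG1, from 143 to 97.1 CPM. TM7SF2, a reductase of the same path, rose from 145 to 209 CPM. Of 28 genes of fatty acid oxidation and its PGC-1 regulators 7 rose and 8 fell: ACADVL, which opens the oxidation of long chains, rose from 519.5 to 627 CPM and HADHB from 217 to 273 CPM, while the regulators ESRRA and PPARGC1B fell from 74.7 to 48.7 CPM and from 16.6 to 10.3 CPM.

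Glycolysis and its hypoxia-response partners fell in 23 of 35 cases and rose in 3 (median -0.34). HK2, a hexokinase, had 59.3, 50.7 and 49.8 CPM in the control and 31.8, 18.2 and 20.2 CPM in the knockdown, and its groups did not overlap. CA12, a carbonic anhydrase, fell from 53 to 24.9 CPM, PFKP, a phosphofructokinase, from 55.4 to 33.7 CPM, HK1 from 200.1 to 149 CPM and enolase ENO1 from 1297 to 914 CPM. HIF1A, a subunit of the hypoxia factor itself, did not pass (adjusted p = 0.975). Of 27 genes of the pentose phosphate, serine and one-carbon paths 1 rose and 18 fell. PPAT, the first enzyme of purine synthesis, fell from 111 to 47.9 CPM, MTHFD1, which feeds folate carbons into it, from 197 to 121 CPM, GART from 164 to 112 CPM and SHMT1 from 82.6 to 51.6 CPM. Mitochondrial lists held fewer calls than those of glycolysis and the one-carbon paths. Of 66 respiratory chain genes 7 rose and 16 fell (median -0.04), with falls near the 23.5% of all genes. The 7 rises became 20 without knockdown library 1, and from 3 to 19 in 4 other settings. Of 24 genes of the citric acid cycle 3 rose and 7 fell, near the 43.0% of all genes that changed. CYCS, cytochrome c, fell from 417 to 292 CPM, FH, fumarase, from 199 to 133 CPM, and NDUFA3 rose from 40.6 to 59 CPM. In polyamine metabolism, SAT1, which marks polyamines for breakdown, rose from 170.3 to 316 CPM and ARG2, an arginase, fell from 199.7 to 118 CPM. ALDH2, the mitochondrial aldehyde dehydrogenase, fell from 27.8, 29.97 and 28.9 to 7.7, 7.42 and 6.6 CPM.

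Part of the growth machinery fell, to a lesser depth. Of 41 MYC-driven and ribosome biogenesis genes, 31 fell and 4 rose (median -0.35). FBL, the methylase of ribosomal RNA, fell from 162 to 113 CPM, NOP56 from 235 to 165 CPM, DKC1 from 149 to 108 CPM, HEATR1 from 135 to 91 CPM and UTP20 from 88 to 59.2 CPM. The changes of this list lay between -0.62 and 0.44, so even its extremes were smaller than the medians of the mitotic lists. Mitochondrial ribosomal proteins fell in 27 of 78 cases and rose in 5. Among translation factors 2 of 36 rose and 9 fell. The 9 became 4 or 5 without knockdown library 2, without control library 1 or with the 6 libraries alone. The tRNA synthetases gave 1 rise and 5 falls in 20 (6 rises without the 6 libraries numbered 1). The falls of these translation factors and synthetases are near the 23.5% of all genes. Of 34 proteasome genes 0 rose and 11 fell, with the catalytic subunit PSMB5 going from 227, 206 and 214 to 142, 155 and 131 CPM.

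Autophagy and lysosome genes leaned upward, with 20 of 45 rising and 3 falling (median 0.18). NPC1, which exports cholesterol from lysosomes, rose from 226, 236 and 217 to 368, 409.9 and 365 CPM, with no overlap. ATG3, which attaches LC3 to lipid, rose from 92.8 to 154 CPM, ATP6V0D1, of the lysosomal proton pump, from 129 to 187 CPM, ATG13 from 93.7 to 123 CPM and the protease CTSB from 179 to 230.2 CPM. In the integrated stress response 8 of 29 rose and 2 fell, and 14 rose without the 6 libraries numbered 1. DDIT3, or CHOP, rose from 24.8 to 50.7 CPM, PPP1R15A, which restores translation, from 5.99 to 10.8 CPM and NUPR1 from 146 to 237 CPM. The unfolded protein response gave 4 rises, or 9 without those libraries, and 6 falls in 28, with the sensor EIF2AK3 rising from 59.4 to 90.5 CPM and SDF2L1 falling from 15.5 to 8.55 CPM. Cytosolic heat shock proteins gave 2 and 6 of 19, HSPH1 falling from 177 to 136 CPM.

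Of 17 genes of MHC class I presentation, 9 rose and 2 fell (median 0.32). HLA-C had 137, 121 and 118 CPM in the control and 174, 220.3 and 172.97 CPM in the knockdown. HLA-E rose from 24.3 to 45.8 CPM, the peptide editor TAPBP from 115 to 177 CPM and the trimming enzyme ERAP1 from 51.8 to 80.5 CPM. Reads of HLA genes can be shared among them. PSMB9, of the immunoproteasome, rose from 1.35 to 3.73 CPM and PSME2, its activator, fell from 113 to 82.6 CPM. Interferon-stimulated genes gave 17 rises and 5 falls in 43 (11 rises without knockdown library 3 or control library 1): OAS1 rose from 3.43 to 8.05 CPM and DDX60 from 17.2 to 27.9 CPM, while OAS3, a relative of OAS1, fell from 43.3 to 27.4 CPM and ISG15 did not pass (-0.27). Of 23 NF-kB subunits and targets 12 rose and 0 fell. Beside IL1RN, the adaptor TRAF1 rose from 0.19 to 0.995 CPM, the subunit NFKB1 from 138 to 177 CPM, and the inhibitors NFKBIA and TNFAIP3 from 94.5 to 124 CPM and from 17.1 to 22.9 CPM. Immediate early genes, which answer growth factors within minutes, rose in 11 of 25 cases and fell in 2: JUNB went from 39.9, 40.3 and 48.2 to 68.1, 80.9 and 74.4 CPM, FOSL2 from 24.3 to 37.6 CPM, the phosphatase DUSP2 from 16.4 to 27.4 CPM and KLF4 from 5.43 to 9.11 CPM.

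Developmental signalling showed single genes rather than whole lists. In the TGF-beta and BMP list 8 of 23 rose and 3 fell: ID2, like ID3 a target of BMP signals, rose from 19.4, 25.3 and 25.2 to 48.5, 64.3 and 57.1 CPM, SMAD9 from 32 to 61.4 CPM and the inhibitor SMAD7 from 12.4 to 20.1 CPM. In the NOTCH pathway 1 of 18 rose and 8 fell (5 without control library 2). JAG1, a NOTCH ligand, had 52.1, 70.2 and 70.6 CPM in the control and 21.8, 25 and 23.5 CPM in the knockdown. MAML2, a coactivator of NOTCH, fell from 2.06 to 0.753 CPM and JAG2 from 76.2 to 53.7 CPM. In the IGF axis, the receptor IGF1R fell from 21.1 to 13.9 CPM beside the rise of IGFBP3. WNT genes gave 2 rises and 4 falls in 14, Hippo targets 3 and 4 in 15, and FOXO factors and targets, which include direct substrates of SIRT1, 3 and 0 in 18.

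Epithelial junction and polarity genes rose in 15 of 31 cases and fell in 0 (median 0.15). CDH1, E-cadherin, had 732, 735 and 710.5 CPM in the control and 1002, 1022 and 973 CPM in the knockdown (1.38-fold higher, adjusted p = 5.45e-06). OCLN, of tight junctions, rose from 184 to 255 CPM, CLDN4 from 169 to 218 CPM and the protease ST14 from 145 to 184 CPM. Keratins, the filaments of epithelia, rose in 5 of 10 tested and fell in 0, with KRT8 going from 486 to 656 CPM and KRT19 from 3.88 to 7.97 CPM. Desmosomes differed: 3 of 20 rose and 7 fell (3 with the 6 libraries alone), DSC2 going from 210.4 to 141 CPM and DSG2 from 422 to 347 CPM (not passed with the 6 libraries alone) beside the loss of DSC3, while JUP rose from 228 to 276 CPM. CDH3, P-cadherin, had 36 control counts and 2 in the knockdown, a ratio of 16.0 (4.12 to 137). Of 12 mesenchymal genes 2 rose and 1, THBS1, fell. VIM, vimentin, did not pass and followed the library number instead, at 20.3, 39.4 and 42.6 CPM in the control and 22, 44.8 and 40.8 CPM in the knockdown. Of the 7 neuroendocrine genes tested 1 rose and 2 fell (median -0.065), so the list had no common direction. SYT4, a synaptotagmin, went from 72.1, 48.1 and 44.8 to 10.8, 9.89 and 11.7 CPM. DLL3 fell (-0.40) and UCHL1 rose (0.68), calls lost in 5 and 3 alternative settings.

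The same knockdown was then set against its change in vehicle and under DHT with enzalutamide, to ask where DHT altered it. The 3 comparisons share no library with each other, but the 2 tests of difference share the 6 libraries under DHT. The change under DHT differed from that in vehicle for 29 of 14558 genes (0.199%), 6 higher (0.0412%) and 23 lower (0.158%), and from that under DHT with enzalutamide for 51 (0.350%), 12 higher (0.0824%) and 39 lower (0.268%). These counts depend strongly on the setting and on single libraries: by DESeq2 they were 161 and 256, and without knockdown library 2 under DHT they were 90 and 176, and without control library 3 under DHT 5 and 16. At an unadjusted p under 0.05 they were 1598 and 1728.

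Genes of S phase were among those on the lower side. CCNE2, a cyclin of S phase entry, fell under DHT, from 54.2 ± 3.56 CPM (mean ± SD, n = 3) to 37 ± 6.74 CPM, while in vehicle it stood at 26.4 ± 0.82 and 31.4 ± 0.164 CPM (difference of the log2 fold changes -0.80, adjusted p = 0.0265 by edgeR's quasi-likelihood test, passed in 10 of 19 alternative settings). PRIM1 had 31.3 ± 2.49 and 14.6 ± 0.896 CPM under DHT against 12.3 ± 0.228 and 8.88 ± 0.618 in vehicle (-0.63, adjusted p = 0.0235, passed in 11). DUT differed by -0.65 and passed in all 19, RRM1 by -0.65 and passed in 15, and CDT1, the licensing factor, by -0.73 and passed in 10. In the control, DHT raised these genes, and in the knockdown the response was smaller or, for DUT, of opposite sign: the log2 change with DHT was 0.99 for RRM1 in the control and 0.35 in the knockdown, and 0.43 and -0.22 for DUT. Over the fork list, 29 of 32 differences lay below 0 (median -0.37), against 7253 of 14558 for all genes (median 0.0006), and 3 passed the test by edgeR, 9 by DESeq2. In the spindle list 18 of 32 lay below 0 (median -0.042) and 0 passed by edgeR, 1 by DESeq2. The spindle list does not stand for all mitotic lists. Of the centromere list 20 of 31 lay below 0 (median -0.214), and of mitotic kinases and cyclins 24 of 31 (-0.142). Origin genes gave 21 of 26 (-0.229). For spindle and fork genes the medians of the knockdown change show the same contrast. Spindle genes stood at -1.58 in vehicle, -1.60 under DHT and -1.64 with enzalutamide, and fork genes at -0.44, -0.93 and -0.36. Which of these lists differ from each other was not tested.

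**Figure D4:**
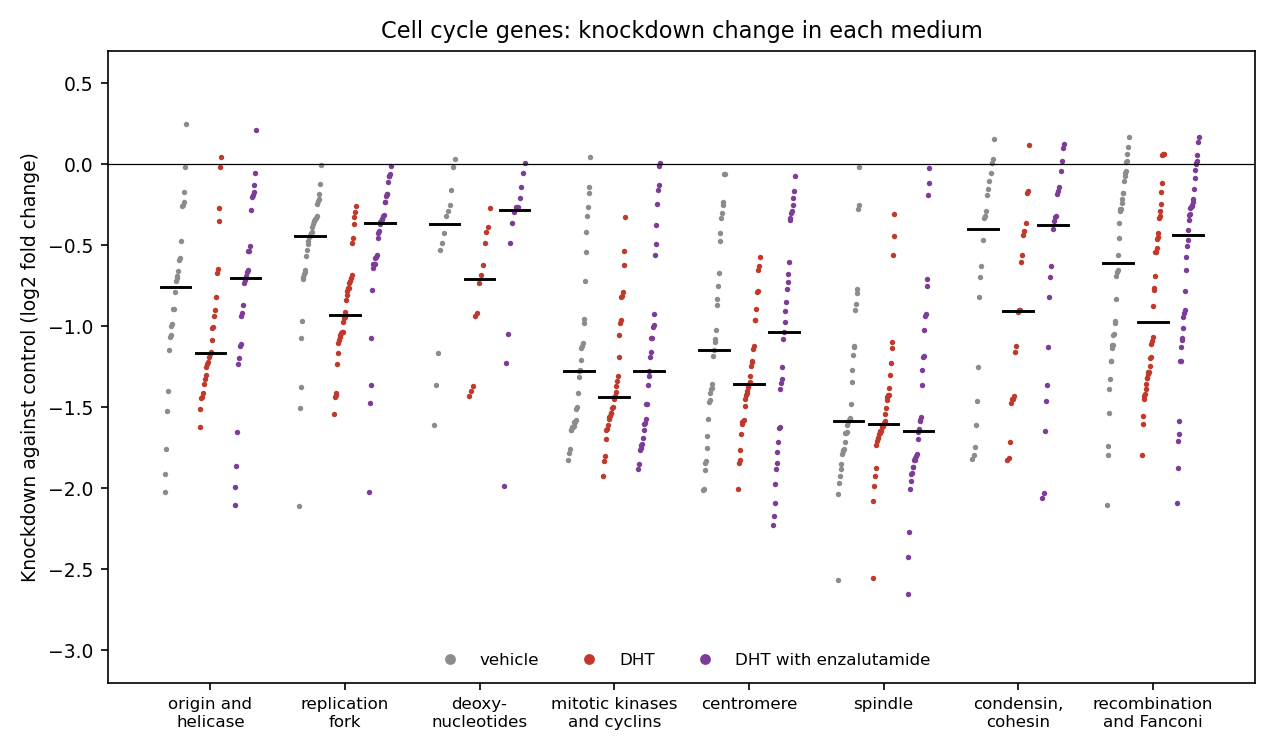
Log2 fold change of knockdown against control for each tested member (points, sorted within a column) of 8 cell cycle lists, in vehicle (grey), DHT (red) and DHT with enzalutamide (purple), with a bar at each median. Spindle medians lie at -1.58, -1.60 and -1.64 in the 3 media, and fork medians at -0.44, -0.93 and -0.36. Centromere medians lie at -1.145, -1.359 and -1.036.

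Of the genes named, KLK4 had the highest difference against vehicle, and TMEM45B, with 0.98 and a call kept in 7 of 19 settings, the highest against DHT with enzalutamide. KLK4 fell with the knockdown in vehicle, from 26 ± 1.72 to 16.7 ± 0.965 CPM, and rose with it under DHT, from 103 ± 8.33 to 157 ± 30.6 CPM (difference 1.25, adjusted p = 0.00209), and this difference passed in all 19 alternative settings. With enzalutamide added, it stood at 36 ± 1.45 and 29.4 ± 0.497 CPM (difference 0.90, adjusted p = 0.0102). KLK3 did not pass the same test: its knockdown change was -2.08 in vehicle, -1.33 under DHT and -1.61 with enzalutamide (difference from vehicle 0.75, adjusted p = 0.180). IL1RN was lowered by DHT in the control, from 34.5 ± 2.3 to 19.9 ± 0.314 CPM, and in the knockdown went from 77.5 ± 6.48 to 68.5 ± 1.53 CPM, a step that did not pass (difference 0.62, adjusted p = 0.0235, kept in 11 of 19 settings). MYNN, a zinc finger gene, had 84 ± 4.29 and 40.5 ± 3.63 CPM with enzalutamide and 48.8 ± 1.39 and 34.6 ± 1.85 CPM under DHT (difference 0.56, adjusted p = 0.0410, a call kept in 7 of 19 settings). Of 55 androgen-induced genes, 1, KLK4, passed the test of the difference between DHT and vehicle by edgeR, and 2 passed by DESeq2.

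**Figure D5:**
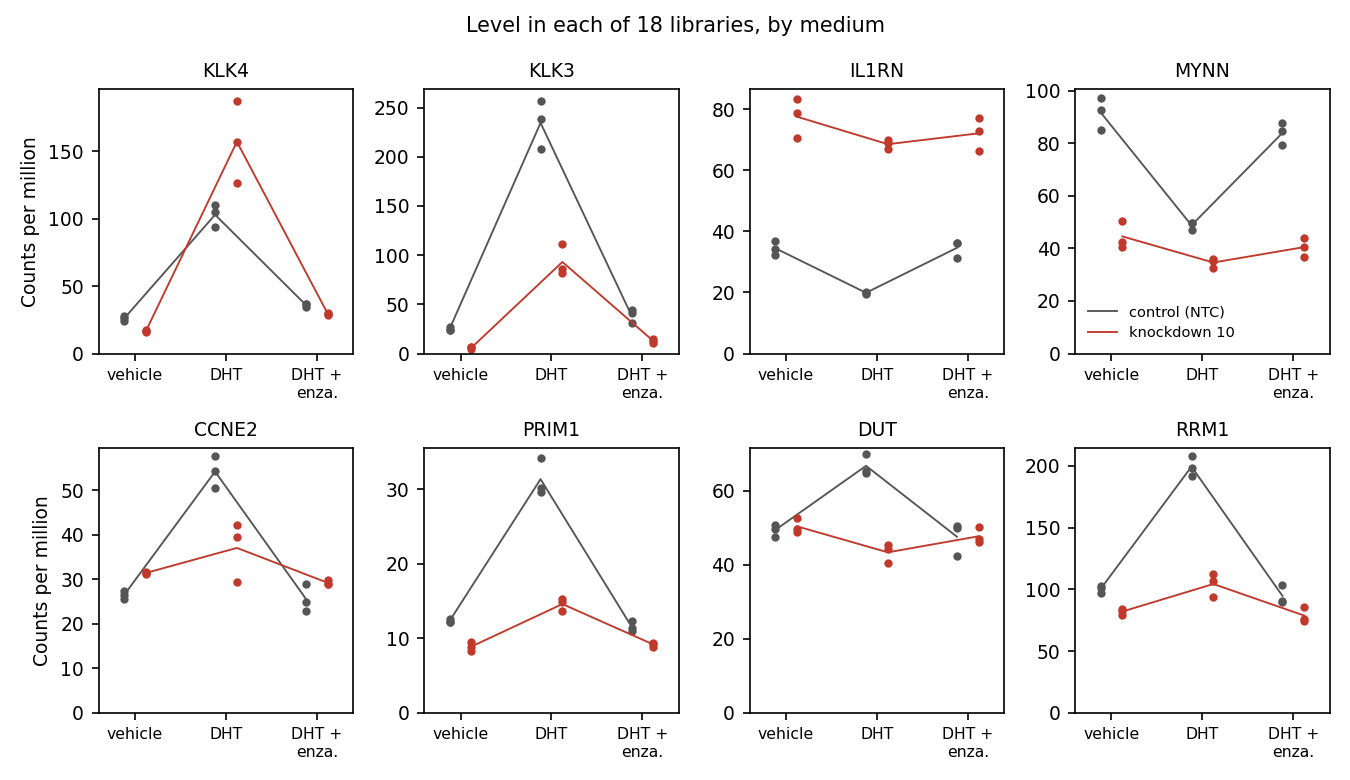
Level in CPM (vertical axis from 0) of 8 genes in each of 18 libraries, for control (grey) and knockdown (red) in vehicle, DHT and DHT with enzalutamide, with lines joining group means. The lines for KLK4 cross, the control lines for CCNE2, PRIM1, DUT and RRM1 peak at DHT above the knockdown lines, and those for MYNN and IL1RN dip at DHT in the control.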

How the data were processed

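RNA was extracted with TRIzol and made into TruSeq stranded mRNA libraries, per the labels' protocols. The deposited per-gene tables hold expected counts, which are RSEM's estimates and need not be whole, and TPM, both made by the authors. The submitters' processing notes name CASAVA 1.8.2, RSEM 1.2.31 and hg19. Expected counts were rounded. The 18 stripped-serum libraries (6 groups of 3) were fitted together in edgeR 4.0.16 (R 4.3.3) with TMM factors, filterByExpr by group and the quasi-likelihood F test, Benjamini-Hochberg adjusted over 14558 genes. Contrasts were knockdown minus control under DHT, and its difference from the same contrast in vehicle or with enzalutamide. The scripts were tested on simulated counts. Alternatives were DESeq2 1.42.0, RLE factors, limma 3.58.1 on log2(TPM + 1), other filters, only the 6 DHT libraries, a replicate block and single libraries left out. The replicate block is an alternative only, because the labels tie no shared batch to a number and not every same-numbered pair of libraries deviated together.

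Named genes were SIRT1, 4 androgen targets, the 12 highest and 12 lowest changes at an average log2 CPM of at least 1, the 10 highest and 10 lowest at 6 or more, up to 6 called members per list by adjusted p, and the 8 highest and 8 lowest of each difference. Members that did not pass may be named as such. The members and lists were chosen with earlier results of these data known. Genes at 0 counts were bounded with 3 counts over the group, and ratios have exact binomial 95% intervals, both for counting error only. Near-identical genes can share reads. RefSeq GRCh38.p14 served for promoters and gene order only. Some genes that the naming rule selects are not reported here.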

Additional observations from a re-analysis of the deposited data

Results flagged for a closer look

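For the genes below, the knockdown changed expression under DHT differently from in vehicle or from under DHT with enzalutamide, by a test of the difference itself (the interaction term of edgeR's quasi-likelihood fit, adjusted p under 0.05 over 14558 genes). Values are differences of log2 fold changes, DHT minus the other medium, and both sets use the 6 libraries under DHT. Against vehicle, the genes shifted downward were CCNE2 at -0.80, CDT1 at -0.73, the kinetochore gene DSN1 at -0.66, the transcription factor PAX9 at -0.66, DUT at -0.65, RRM1 at -0.65, PRIM1 at -0.63 and C20orf72 at -0.62. Those shifted upward were PHF23 by 0.34, POLR2J3 by 0.45, IL1RN by 0.62, C1QTNF6 by 0.65, the galectin LGALS8 by 0.70 and KLK4 by 1.25. Against DHT with enzalutamide, the lowest were the protease CTSL2 at -0.93, FANCD2 of the Fanconi pathway at -0.77, PRIM1 at -0.77, CCNE2 at -0.74, the centromere gene CENPL at -0.73, DSN1 at -0.71, CDT1 at -0.70 and cyclin F, CCNF, at -0.70. The highest were FAM117A at 0.47, DLGAP4 at 0.48, C17orf63 at 0.49, MYNN at 0.56, IL1RN at 0.73, LOC338651 at 0.84, KLK4 at 0.90 and TMEM45B at 0.98. Over 19 alternative settings each, DUT and KLK4 against vehicle and CCNF, DSN1 and PRIM1 against enzalutamide passed in all, and FAM117A in 4.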

How the results depend on the processing

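The count of genes changed under DHT stayed within 1.5 times of 6266 in every setting tried (4809 to 7543). No gene that passed both in the main fit and in another setting changed sign between them. Of 6542 values for 468 named genes, 6368 kept direction and side of the threshold; in the rest the call was lost, or in 1 case gained. The share of calls that rose was 45.3%, and 37.5% with limma on TPM. The 29 genes differing from vehicle became 161 with DESeq2, 7 with limma on TPM, 14 without the 6 libraries numbered 1 (added after the data were seen) and 5 to 90 with single libraries left out. The 51 differing from DHT with enzalutamide became 256, 24 and, with single libraries left out, 16 to 176. Of 2352 counts of lists that rose or fell, 231 moved by over 1.5 times. With the replicate number as a block the 2 counts of differences were 427 and 573, and 7543 genes changed under DHT. Same-numbered libraries of the 2 DHT groups had correlated deviations (r = 0.297, 0.157 and 0.0779), 5 of 6 libraries correlating best with their own number, a hint from the data and not from the design. Over all 15 pairs of groups, 37 of 45 same-numbered pairs had an r over 0.1 (lowest 0.0043). Among the groups with DHT or with DHT and enzalutamide it was 17 of 18, and among those with DHT or vehicle 14 of 18. With the block, 15 of 32 fork genes were lower under DHT than in vehicle, and of 55 androgen-induced genes 3 were higher and 1 lower. The causes were not tested. Depth limits the genes near 0 counts to bounds and intervals.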

Other observations

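Changes were also laid out along the genome. The 14440 tested genes with a place in the RefSeq gene order gave 13980 windows of 21 neighbours, whose median log2 fold changes lay between -0.26 and 0.23 in the central 95%. The lowest window ran from RHBG to SLAMF9 (median -0.55, 14 genes fell and 1 rose), followed by NCRNA00292 to AURKAPS1 (-0.49, 14 fell and 0 rose), CHML to ZNF670 (-0.47, 15 and 0) and C7orf30 to HOXA6 (-0.44, 12 and 0). The highest ran from HIST1H2BK to ZNF389 (0.49, 10 rose and 0 fell), SKIV2L to HLA-DQB1 (0.48, 10 and 0), TRIM38 to BTN2A1 (0.45, 10 and 3) and IL36G to PCDP1 (0.40, 13 and 1). The windows were ranked by their values and carry no test. Around SIRT1 itself, of the 12 nearest tested genes 8 rose, against 19.5% of all tested genes. Among them were JMJD1C (0.63), LOC84989 (1.13, only from 0.31 to 0.678 CPM), CTNNA3 (2.76) and DNAJC12 (0.92, from 25.1 to 47.4 CPM). HNRNPH3 (-0.19) and DNA2 (-1.04) fell. Next to IL1RN, IL36RN (1.27), IL1F10 (1.16) and PSD4 (0.63) rose. FEN1 (-1.44) lies beside FADS1 and FADS2, where FADS3 (0.38) and FTH1 (0.78) rose. ZIM2, beside PEG3, fell by 2.35 on the log2 scale. DSC2 (-0.58) and, at a low level, DSC1 (-1.65, from 0.515 to 0.165 CPM) fell beside DSC3. Neighbours were described after their values were seen, and overlapping genes can share reads.

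Families defined by symbol were counted too, to be read against 19.5% rising and 23.5% falling among all tested genes. The counts of zinc finger genes, solute carriers, potassium channels and ephrins lie near or below those shares. Of 83 cytosolic ribosomal protein genes 11 rose and 4 fell, and 29 rose without the libraries numbered 1. Of 494 zinc finger genes 69 rose and 100 fell, and of 244 solute carriers 44 and 65, where SLC4A4, a bicarbonate transporter, fell from 74.6 to 18.3 CPM. Kinesins gave 5 rises and 18 falls in 38. Potassium channels gave 9 and 8 of 40, with KCNH8 falling from 3.25 to 0.18 CPM. RAB GTPases, which steer vesicles, gave 18 and 12 of 53. Ephrins and their receptors gave 4 and 5 of 19, with EPHA2 falling from 5.94 to 2.15 CPM and EPHA6 rising from 70.3 to 130.3 CPM. Laminins gave 1 and 3 of 10: LAMA1 fell from 3.69 to 1.22 CPM beside the rise of LAMA3. Long non-coding and antisense names gave 12 and 1 of 42.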
